A study of Homo sapiens with 10 samples.

Results

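HMGA1, HMGA2, LIN28A, LIN28B, IGF2BP1, IGF2BP2 and IGF2BP3 are grouped here as oncofetal genes. Such genes are switched on in embryonic tissue, largely silent in most adult tissue and often active again in tumours. IGF2BP2 departs from this, as it stays active in many adult tissues. The group of 7 genes is defined by name, and their rows were found by symbol among the 241080 loci of a gene expression table. A row was found for 6 of the 7 genes, all 6 had been tested by the authors (status OK in the authors' deposited table), and each reached an FPKM of 1 or more in both nuclear fractions compared. FPKM is the number of fragments scaled to transcript length and library size. The row of IGF2BP1 was shared with a second gene, AC105030.1, so its value cannot be assigned to IGF2BP1 alone. The expression of LIN28A was not analysed here, and LIN28A enters the sequence search alone.

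The RNA came from nuclei of HEK293, a human embryonic kidney cell line grown attached to the dish, and the labels name no agent for the fractions compared here. Nuclei were divided into a chromatin pellet extract (CPE, 3 samples), which holds RNA still attached to chromatin, and a soluble nuclear extract (SNE, 3 samples), and the design gives the 3 of each as biological replicates. A further 2 CPE samples with DRB, an inhibitor of transcription elongation, and 2 mock CPE samples were not analysed here. The table holds 1 FPKM value per locus for CPE and 1 for SNE, so no spread between replicates and no read depth could be computed. Since FPKM is relative to the rest of a library, less of a transcript and more of other RNA cannot be told apart. A difference was called where the q-value of the authors' Cuffdiff test was at most 0.05, and the log2 ratio is that of CPE over SNE.

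These genes are linked through a family of small RNAs. LIN28A and LIN28B are RNA-binding proteins that hold back the maturation of let-7 microRNAs, in part through a GGAG motif in the let-7 precursor. Mature let-7 represses HMGA2, the LIN28 genes themselves and the IGF2BP genes. The IGF2BP proteins bind messenger RNAs in the cytoplasm and stabilise them, and the HMGA proteins bind AT-rich DNA through AT hooks and bend chromatin. All 9 mature 5p members of the let-7 family, miR-98 included, carried the same seed (bases 2 to 8, RefSeq on GRCh38.p14). Sequences of 3 of them, with the seed in capitals, show the part whose match was searched for in the genes described here.
hsa-let-7a-5p: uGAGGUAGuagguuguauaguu
hsa-let-7g-5p: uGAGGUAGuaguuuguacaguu
hsa-miR-98-5p: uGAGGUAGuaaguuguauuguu

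The precursor of let-7g, on chromosome 3 (52268278 to 52268361, minus strand, GRCh38.p14), shows the LIN28 motif in capitals.
let-7g hairpin: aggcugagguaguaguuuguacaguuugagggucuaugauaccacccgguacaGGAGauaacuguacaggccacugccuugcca
The letters GGAG were found in 9 of 12 hairpins of the family (75%), searched on the RNA strand, and in 43.4% of the 1562 human hairpins in the RefSeq table.

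The principal transcripts of the group were searched on the sense strand for the letters CTACCTCA, a match to the let-7 seed followed by A (GENCODE 29 transcripts, GRCh38). At least 1 copy stood in the 3′ untranslated region (UTR) of 6 of the 7 genes, HMGA1 being the exception. Among all 19115 genes with such a region, 3.26% had one. The regions differ in length, and longer ones hold more matches by their size. Among regions within 20% of the length of each gene's own, the share with a match was 2.75% for HMGA1 and between 3.93% and 10.2% for the others. The first match in 5 of the genes is shown, on GRCh38 and not the hg19 of the expression table, with the matching letters in capitals.
HMGA2, chr12:65963299-65963320, plus strand: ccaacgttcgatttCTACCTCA
LIN28B, chr6:105078813-105078834, plus strand: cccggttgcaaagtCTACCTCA
IGF2BP1, chr17:49051062-49051083, plus strand: gtgtgcgaagtaaaCTACCTCA
IGF2BP2, chr3:185644220-185644241, minus strand: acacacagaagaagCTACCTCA
IGF2BP3, chr7:23311795-23311816, minus strand: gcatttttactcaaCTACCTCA
IGF2BP1 had 3 such matches and LIN28B had 2. Counting the shorter CTACCTC, which the 8 letters contain, HMGA2, LIN28B and IGF2BP1 had 4 each and HMGA1 had 1. A match describes the sequence and is not evidence of binding in these cells.

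HMGA1, HMGA2, LIN28B and the row of IGF2BP1 were lower in the chromatin pellet than in the soluble extract, and IGF2BP2 and IGF2BP3 were not called. Of the 6 rows in the authors' deposited table, 4 were called lower in CPE and 0 higher, and the 2 uncalled rows also had ratios below 0. Among all 18271 tested loci with a symbol, 39.3% were called lower in CPE and 1.83% higher. Among the 11388 of them reaching 1 FPKM in CPE and in SNE, as all 6 rows did, 5960 were called lower and 146 higher. A lower level in CPE was thus the common direction for named genes in these libraries. The median log2 ratio was -1.56 over the 6 rows, -1.21 over all tested loci with a symbol and -1.33 over those 11388.

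HMGA1, an AT-hook protein common in dividing cells, had an FPKM of 21.3 in CPE and 144.2 in SNE, the authors' values. It was 6.77-fold lower in CPE, a log2 ratio of -2.76 (authors' deposited table, q = 0.000706, the smallest q there, shared by 13655 tested loci). Its region lies on hg19 chromosome 6, 34204650 to 34217247. Among other named loci, meaning tested loci with a symbol that reached 1 FPKM in CPE and in SNE, 1.12% had a lower ratio, and 3.77% did where 1 FPKM in either fraction was enough.

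HMGA2, the paralog expressed mainly in embryonic and mesenchymal tissue, had an FPKM of 7.96 in CPE and 32.9 in SNE. This was the lowest CPE value of the 6 rows. The log2 ratio was -2.05, 4.14-fold lower in CPE (authors' deposited table, q = 0.0172), and the region spans 66151800 to 66361873 of hg19 chromosome 12. The share of other named loci with a lower ratio was 18.5%.

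LIN28B, the let-7 inhibitor, stood at nearly the same soluble level as HMGA2, with an FPKM of 9.54 in CPE and 32.3 in SNE. Its log2 ratio was -1.76, 3.39-fold lower in CPE (authors' deposited table, q = 0.000706; hg19 chromosome 6, 105404789 to 105531207). Among other named loci 30.9% had a lower ratio.

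IGF2BP1, the fetal messenger RNA-binding protein also known for protecting MYC mRNA, had the second highest soluble level of the group. Its shared row had an FPKM of 36.4 in CPE and 93.4 in SNE, and the CPE value was the highest of the 6. The log2 ratio was -1.36, 2.57-fold lower in CPE (authors' deposited table, q = 0.0389; hg19 chromosome 17, 47071784 to 47136341). That ratio lay close to the middle of named loci, 48.6% of which had a lower one.

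IGF2BP3, a second oncofetal paralog, had an FPKM of 11.1 in CPE and 22.4 in SNE. Its log2 ratio of -1.02 was not called (authors' deposited table, q = 0.146; hg19 chromosome 7, 23338358 to 23510156). IGF2BP2, the paralog that stays active in many adult tissues, had an FPKM of 13.2 in CPE and 19 in SNE. These 2 values were the closest of any row in the group, with a log2 ratio of -0.53 (authors' deposited table, q = 0.511; hg19 chromosome 3, 185352410 to 185542844). Among other named loci 62.1% had a lower ratio than IGF2BP3 and 77.0% a lower ratio than IGF2BP2.

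**Figure D1:**
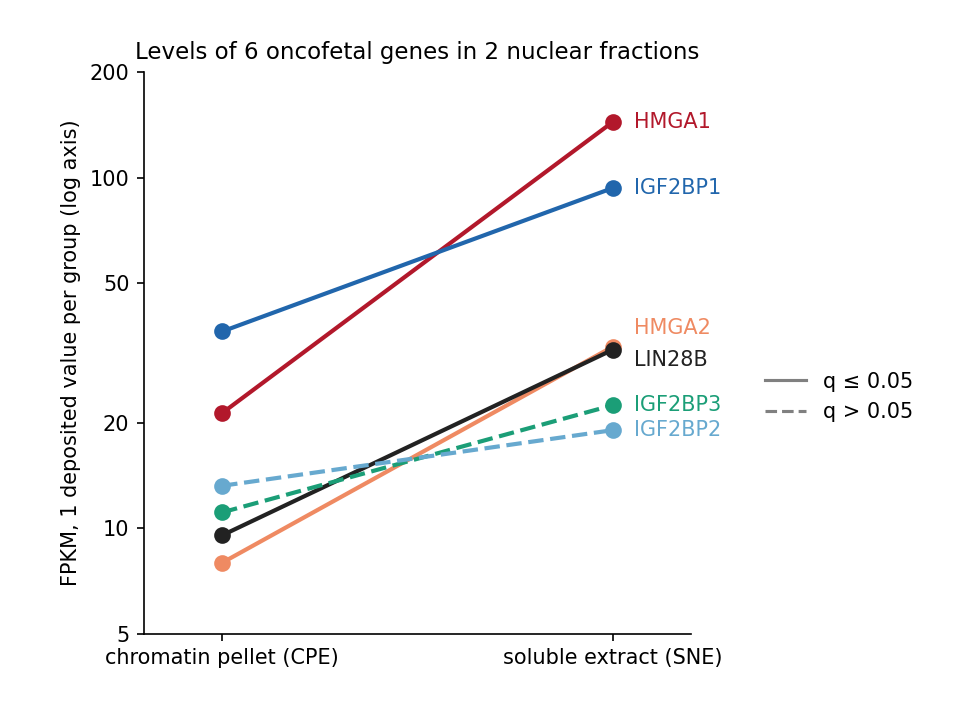
FPKM of each gene (log axis, 1 deposited value per group) in the chromatin pellet (left) and the soluble extract (right), with solid lines for q of at most 0.05 and dashed lines for higher q. HMGA1 has the steepest line, between 21.3 in CPE and 144.2 in SNE, and IGF2BP2 the flattest, between 13.2 in CPE and 19 in SNE.

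The order of the genes by level differed between the fractions. In CPE it ran IGF2BP1, HMGA1, IGF2BP2, IGF2BP3, LIN28B, HMGA2, and in SNE it ran HMGA1, IGF2BP1, HMGA2, LIN28B, IGF2BP3, IGF2BP2. With 1 value per group, it could not be judged which neighbours in either order differ beyond the spread between samples, and differences between genes were not tested. By log2 ratio the HMGA genes were lowest, LIN28B followed, and the 3 IGF2BP rows were highest.

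The calls of HMGA2 and IGF2BP1 depended on the q threshold. At q of at most 0.01 only HMGA1 and LIN28B remained called, 2 of 6. That rule called 32% of all tested loci with a symbol lower in CPE. Among tested loci with 1 symbol reaching 1 FPKM in CPE or SNE, it called 39.9% lower. The zero of the ratio depends on the authors' scaling between libraries, which no source used here states. Relative to the median of named loci reaching 1 FPKM in CPE and in SNE (a shift of -1.33), HMGA1 lay at -1.43, HMGA2 at -0.71, LIN28B at -0.43 and IGF2BP1 at -0.03. IGF2BP3 then lay at 0.32 and IGF2BP2 at 0.81, above that median though their deposited ratios were below 0. No centred ratio was tested.

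Gene length moved with the ratio across protein-coding genes. The 8093 tested protein-coding loci with 1 symbol, a known length and 1 FPKM or more in CPE and in SNE were used. They were put in 5 classes of equal size by gene length from GENCODE 29. In the shortest class (0.312 to 13.0 kb) the median log2 ratio was -1.84 and 78.1% of loci were called lower in CPE. In the longest class (114.0 to 2305 kb) the median was -0.83 and 25.9% were called lower. HMGA1 is a short gene of 9.36 kb, and HMGA2, LIN28B, IGF2BP3 and IGF2BP2 are long genes of 142.2, 146.7, 160.3 and 181.3 kb. These are GENCODE 29 lengths and need not be those of the loci the authors measured. For LIN28B, the hg19 region given above is shorter than 146.7 kb. IGF2BP1, at 58.2 kb, belonged to the class of 53.3 to 114.0 kb, with a median of -1.23. The part of length in the ratios of these genes was not tested.

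Set beside genes of their own length class, HMGA2 and LIN28B were low. Of the 1618 other loci in the longest class, 4.70% had a lower ratio than HMGA2, and 12.1% had a lower ratio than LIN28B. In the shortest class 2.66% had a lower ratio than HMGA1. IGF2BP1 and IGF2BP3 lay nearer the middle of their classes, with 43.0% and 41.5% of loci below them. For IGF2BP2 the share was 64.3%. Within the tenth of protein-coding loci of like mean FPKM, 0.247% of loci lay below HMGA1, 15.8% below HMGA2, 29.3% below LIN28B, 62.1% below IGF2BP1, 64.2% below IGF2BP3 and 81.7% below IGF2BP2.

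**Figure D2:**
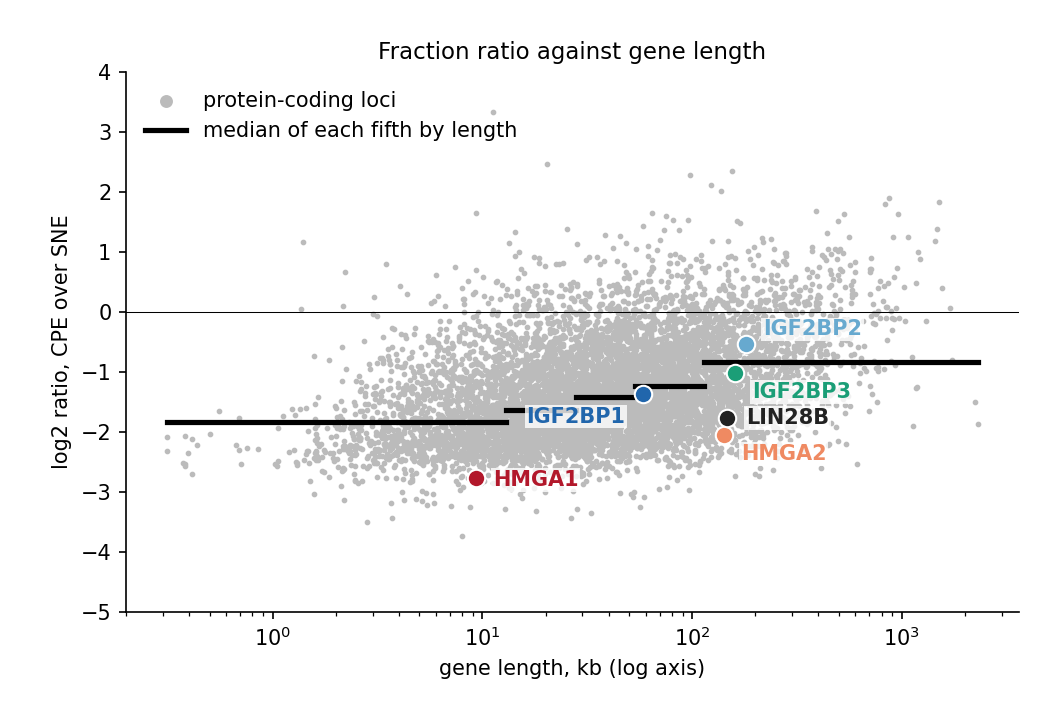
Log2 ratio of CPE over SNE against gene length in kb (log axis) for 8093 protein-coding loci (grey points), with the median of each of 5 length classes (black lines) and the 6 genes (coloured points). IGF2BP2 sits above the line of its own class and the other 5 genes sit below theirs, IGF2BP1 and IGF2BP3 by the least.

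Loci without a symbol in the same regions as the genes stood on the other side of 0. The table gives a region for each bundle of loci and not the place of a locus within it, so whether a locus lies in an intron, in an exon or beside the gene was not known. The 6 regions held 169 such loci, of which 167 were tested. Of these, 165 had a ratio above 0 and 2 below, with a median log2 ratio of 3.58, while the rows of the 6 genes themselves lay below 0. Over all 174660 tested loci without a symbol, 97.3% had a ratio above 0 and the median was 3.33, or 1.45 among those reaching 1 FPKM in CPE and in SNE. Of the 167, the authors' deposited table has 16 called higher in CPE (9.58%) and 0 lower, against 9.45% and 0.63% of all tested loci without a symbol. The share in these regions was near that background.

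The calls were unevenly spread over the regions. IGF2BP2 had 7 of 24 loci called higher in CPE and IGF2BP3 had 5 of 19. HMGA2 had 2 of 58, LIN28B had 2 of 45, IGF2BP1 had 0 of 19 and HMGA1 had 0 of 2. The differences between regions were not tested, and loci of 1 region are not independent. Levels were low in most of these loci. The median FPKM was 1.64 in CPE and 0.160 in SNE in the IGF2BP2 region, and 1.74 in CPE and 0.208 in SNE in the IGF2BP3 region. It was 1.75 in CPE and 0.117 in SNE in the HMGA2 region, and 2.91 in CPE and 0.243 in SNE in the LIN28B region. With a minimum of 1 FPKM in CPE and in SNE, 1 of the 16 calls was left, in the IGF2BP2 region.

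Some of these loci were as abundant in chromatin as the gene itself. The most abundant in the LIN28B region had an FPKM of 16.2 in CPE and 0.676 in SNE, above LIN28B itself in CPE (9.54), though it was not called (authors' deposited table, q = 0.493). In that region 3 of 45 loci exceeded the gene's CPE value, and none exceeded its SNE value. The top locus in the HMGA2 region had 9.83 FPKM in CPE and 0.908 in SNE (authors' deposited table, q = 0.567), against 7.96 in CPE for HMGA2. In the IGF2BP1 region the top locus had 18.7 FPKM in CPE and 3.11 in SNE (authors' deposited table, q = 0.531), below the gene in both. The IGF2BP2 region held a locus with 20.7 FPKM in CPE and 14.2 in SNE (authors' deposited table, q = 0.628), and IGF2BP2 had 13.2 in CPE. FPKM is scaled to the length of each locus, and short loci can reach high values from few reads.

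**Figure D3:**
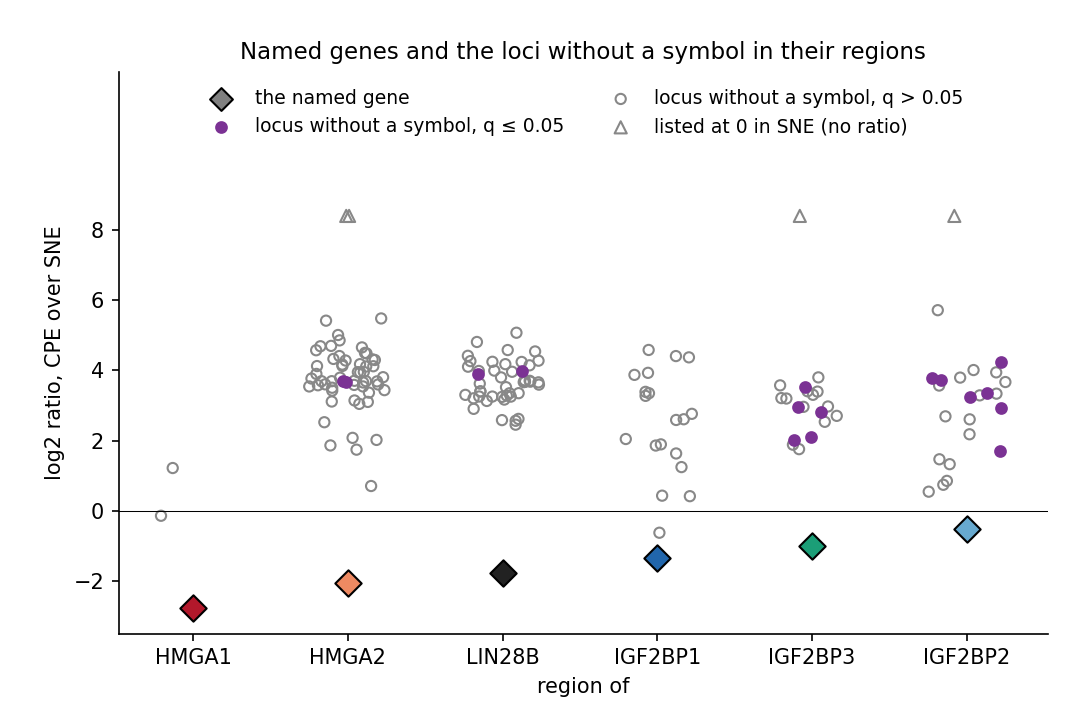
Log2 ratio of CPE over SNE for each gene (diamonds) and for the 167 tested loci without a symbol in its region (circles, filled where q was at most 0.05, and triangles at the top for 4 loci listed at 0 in SNE). The diamonds lie below 0 in all 6 regions and 165 of the 167 other marks lie above it.

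Of the other named loci in these regions, 4 were tested. MALSU1, a mitochondrial ribosome assembly factor in the IGF2BP3 region, had an FPKM of 15.1 in CPE and 68.4 in SNE, a log2 ratio of -2.18 (authors' deposited table, q = 0.0403). C6orf1, in the HMGA1 region, had 3.13 in CPE and 7.33 in SNE and was not called (authors' deposited table, q = 0.366). AC090673.1, in the HMGA2 region, had 1.99 in CPE and was listed at 0 in SNE, and was not called (authors' deposited table, q = 0.493). RP11-501C14.5, in the IGF2BP1 region, had 2.26 in CPE and 3.28 in SNE and was not called (authors' deposited table, q = 0.858). RPSAP52, a pseudogene transcript of the HMGA2 region known to run antisense to it, was listed at 0 in both groups and was not tested.

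HMGA1 has processed copies elsewhere in the genome, and reads of near-identical copies can be divided among them. HMGA1P1 on chromosome X had an FPKM of 0.320 in CPE and 2.05 in SNE, a log2 ratio of -2.68 (authors' deposited table, q = 0.000706), close to the -2.76 of HMGA1. HMGA1P3 had 2.99 in CPE and 13.4 in SNE and was not called (authors' deposited table, q = 0.493). HMGA1P4 had 1.98 in CPE and 0.807 in SNE, a ratio of the opposite sign that was not called (authors' deposited table, q = 0.117). No source used here states how reads were assigned among copies, so the value of HMGA1 is uncertain to that extent.

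Genes that handle let-7 together with LIN28 divided into called and uncalled. Of 10 measured genes (tested, under 1 symbol and reaching 1 FPKM in CPE or SNE), 3 were called lower in CPE, 0 higher and 7 were not called, with a median log2 ratio of -0.78 that centring turned to 0.55, against a median of -1.36 over all 12630 measured loci with 1 symbol. Of those 12630 loci, 48.1% were called lower in CPE and 1.49% higher. The 3 that fell were XPO5, HNRNPA1 and MSI1. XPO5, the exporter of microRNA precursors, had an FPKM of 78.2 in CPE and 223.6 in SNE, 2.86-fold lower in CPE (authors' deposited table, q = 0.0204). HNRNPA1, which binds the let-7a precursor, was 3.54-fold lower (authors' deposited table, q = 0.0220). MSI1, a neural RNA-binding protein reported as a LIN28 partner, had 1.29 FPKM in CPE and 6.57 in SNE (authors' deposited table, q = 0.0121). DHX9, an RNA helicase, had 109.8 in CPE and 182.3 in SNE and was not called (authors' deposited table, q = 0.139). None of the 3 calls was kept at q of at most 0.01, a rule that calls 39.9% of measured loci lower in CPE. TRIM71, also in the list, was below 1 FPKM in both fractions and so not counted. It had 0.215 in CPE and 0.437 in SNE and was called lower in CPE (authors' deposited table, q = 0.00194).

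All 10 rows holding a single let-7 or MIR98 hairpin were untested, 7 of them listed at 0 in both groups, which does not show absence. LINC00478, the host transcript of the let-7c cluster, had an FPKM of 22.0 in CPE and 8.36 in SNE, a log2 ratio of 1.39 that was not called (authors' deposited table, q = 0.493). A row shared by MIRLET7A3, MIRLET7B and other genes had a ratio of the opposite sign, with 13.4 in CPE and 52.7 in SNE, a log2 ratio of -1.97 that was also not called (authors' deposited table, q = 0.222).

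Other known let-7 targets numbered 21 measured genes, of which 13 were called lower in CPE, 0 higher and 8 were not called, beside 48.1% called lower among all measured loci. Their median log2 ratio was -1.77, or -0.44 after centring. HRAS, a growth factor signalling GTPase, had an FPKM of 16.6 in CPE and 87.8 in SNE, 5.29-fold lower in CPE (authors' deposited table, q = 0.000706). HIC2, a transcriptional repressor, was 4.93-fold lower, and AURKB, a mitotic kinase, was 2.60-fold lower (authors' deposited table, q = 0.000706 for both). DICER1, which cuts let-7 precursors and is also a let-7 target, had 50.9 in CPE and 90.4 in SNE and was not called (authors' deposited table, q = 0.406). A further comparison took tested loci with 1 symbol that reached 1 FPKM in CPE and in SNE, a narrower set than the measured loci. The median log2 ratio was -1.34 over 305 with CTACCTCA in the 3′ UTR and -1.40 over 7776 without. It is a description only, since the first set had longer UTRs (median 3347 against 1193 bases).

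Among 12 measured targets and partners of the IGF2BP proteins, 5 were called lower in CPE, 0 higher and 7 were not called. Of all measured loci, 48.1% were called lower. The 12 had a median log2 ratio of -1.23, which centring turned to 0.11. MYC, the transcription factor whose mRNA IGF2BP1 shields, had an FPKM of 13.6 in CPE and 59.6 in SNE, 4.39-fold lower in CPE (authors' deposited table, q = 0.000706). ELAVL1, an mRNA-stabilising protein, was 4.55-fold lower and PABPC1, the poly(A)-binding protein, was 3.40-fold lower (authors' deposited table, q = 0.000706 for both). The row that lists IGF2, the growth factor that gave the family its name, also lists INS and other genes, and had an FPKM of only 0.0593 in CPE and 0.295 in SNE (authors' deposited table, q = 0.00134). H19, another oncofetal RNA, was not tested, at 0.0443 in CPE and 0.169 in SNE.

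Of 12 other high mobility group genes measured, 10 were called lower in CPE, 0 higher and 2, TOX3 and HMGN4, were not called, beside 48.1% called lower among all measured loci. At q of at most 0.01 the count was 4 of 12, beside 39.9% of measured loci. The median log2 ratio was -1.62, or -0.29 after centring, which put 4 of the 12 genes above 0. HMGB2, a DNA-bending protein of dividing cells, had an FPKM of 55.2 in CPE and 214.8 in SNE, 3.89-fold lower in CPE. HMGB1 was 2.96-fold lower and HMGB3 4.83-fold lower (authors' deposited table, q = 0.000706 for all 3). HMG20B, a subunit of a histone demethylase complex, was 5.19-fold lower (authors' deposited table, q = 0.0228). The ratio of HMGA1 (-2.76) was below the lowest of these 12 genes (-2.37), and no test between genes was made.

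Of 9 measured genes linked to HMGA function or known as oncofetal, 7 were called lower in CPE, 0 higher and 2 were not called, beside 48.1% called lower among all measured loci. The median log2 ratio was -1.90, or -0.57 after centring. The uncalled genes were SOX2, a stem cell transcription factor at 1.85 FPKM in CPE and 6.91 in SNE, and MEIS1, a homeobox factor at 16.5 in CPE and 14.9 in SNE. CCNA2, the cyclin whose gene HMGA2 activates, had an FPKM of 16.9 in CPE and 65.5 in SNE, 3.87-fold lower in CPE (authors' deposited table, q = 0.000706). CDKN2A, a cell cycle inhibitor locus that HMGA2 restrains in stem cells of mice, was 5.47-fold lower (authors' deposited table, q = 0.0192). GPC3, an oncofetal cell surface proteoglycan, had 2.22 in CPE and 10.2 in SNE, 4.58-fold lower in CPE (authors' deposited table, q = 0.00194). The other oncofetal and pluripotency genes AFP, DLK1, SALL4, NANOG and POU5F1 were not tested, with a highest FPKM of 0.0988 in either group.

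Of 14 measured pseudogene and flanking loci of the 6 genes, 8 were called lower in CPE and 0 higher. Among all measured loci 48.1% were called lower. The 14 had a median log2 ratio of -1.83, or -0.49 after centring. TRA2B, a splicing factor next to IGF2BP2, had an FPKM of 75.6 in CPE and 279.3 in SNE, 3.70-fold lower in CPE, and SNF8, an endosomal sorting protein near IGF2BP1, was 3.56-fold lower (authors' deposited table, q = 0.000706 for both). Over all lists, counting each gene once, 45 of 76 measured genes were called lower in CPE, 0 higher and 31 were not called, with a median of -1.72, beside 48.1% called lower among all measured loci. No list was tested as a set.

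**Figure D4:**
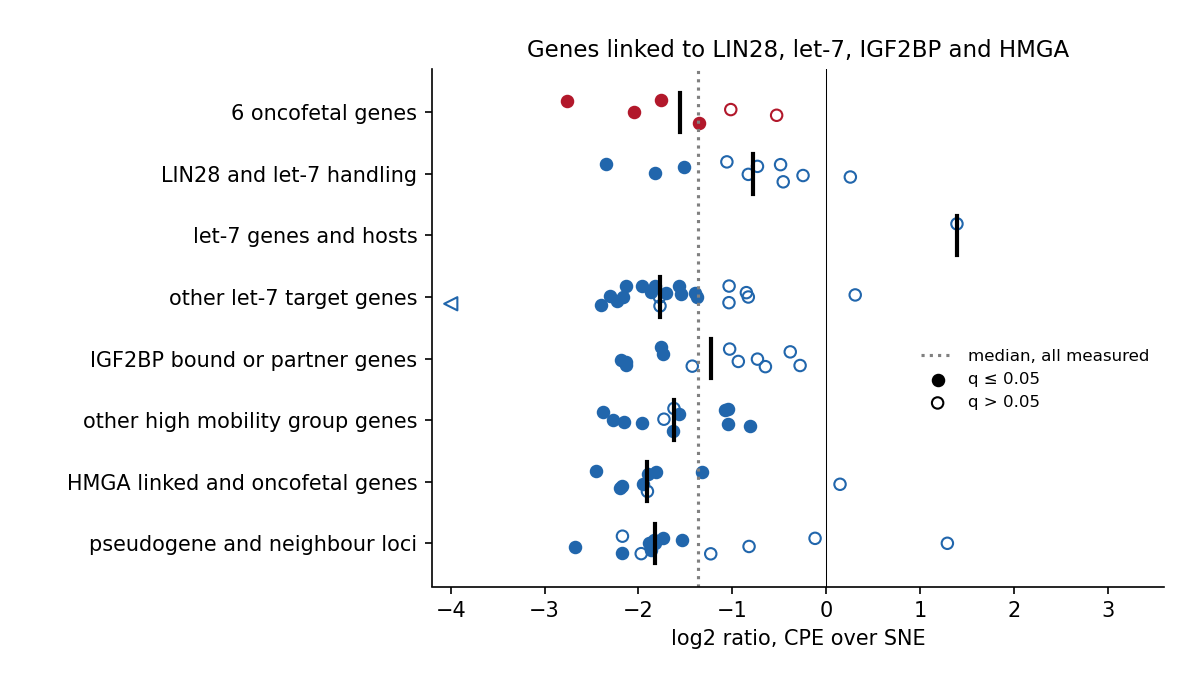
Log2 ratio of CPE over SNE for the 6 genes (red) and for measured genes of 7 linked lists (blue), filled where q was at most 0.05, with the median of each row as a black bar and the median of all measured loci with 1 symbol (-1.36) as a dotted line. An open triangle at the left edge stands for PLAGL2, whose ratio lies beyond the axis at -6.66 and was not called.

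Genes with nearly the same pair of values were found for each of the 6 rows by the distance in log2(FPKM + 0.1) over the 2 groups, among 16698 tested loci with 1 symbol (16699 for the shared IGF2BP1 row). HMGA2 lay nearest CTB-52I2.4 (distance 0.00683) and CERK, LIN28B nearest ASF1A (0.0119) and BMP7, and IGF2BP1 nearest PAF1 (0.0150) and FKBP10. IGF2BP2 lay nearest CCDC91 (0.0206) and FBXO11, and IGF2BP3 nearest AGGF1 (0.0148) and CERCAM. HMGA1 had no neighbour as close, the nearest being RPS19P3 (0.0915) and RPS28 (0.118). With only 2 groups, such likeness means no more than similar levels. The same ratio did not bring the same call: ASF1A, at a log2 ratio of -1.74, was not called (authors' deposited table, q = 0.104), while LIN28B at -1.76 was. AGGF1, at -1.03, was called lower in CPE (authors' deposited table, q = 0.00665), while IGF2BP3 at -1.02 was not.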

How the data were processed

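Stranded total RNA libraries of nuclear fractions were made, per the labels' protocols, and TopHat2, Cuffdiff and hg19 stand in the submitters' processing notes. Versions, annotation and library scaling are not stated there. Per the file headers, the gene table holds 1 FPKM for each of SNE and CPE, their log2 ratio, and the p-value and q-value the authors deposited. A second table, by isoform, was not used.

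Rows were taken by symbol, and a call needed status OK and q of at most 0.05. No test, SD or interval could be computed. The 6 deposited ratios lay within 0.01 of the ratio of the FPKM values. Region starts count from 1. Gene lengths came from GENCODE 29 by symbol, and 3′ UTRs from its principal transcripts. A length was found for 8892 of the 10065 tested loci with 1 symbol and 1 FPKM in CPE and in SNE (88.3%). Named were all genes of the group, from each of 7 lists the 2 of highest mean FPKM and the 2 called ones with the largest ratio, list genes in a region of the group, and the 2 nearest genes by likeness. In the regions, the top loci by FPKM were named. Other genes were named after their values were seen. The group and the lists were chosen with earlier results of these data known. Alternatives covered the q threshold, a minimum ratio, an FPKM minimum, centring, pseudocounts and rows with several symbols. Python 3.11.15 and pandas 2.3.3 were used, and the call rule was tested on simulated data.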

Additional observations from a re-analysis of the deposited data

How the results depend on the processing

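At q of at most 0.01, the 4 genes called lower in CPE became 2, the 3 called let-7 handling genes became 0 and the 10 called high mobility group genes became 4. An FPKM of at least 1 in both groups left 1 of 16 called loci without a symbol in the regions, 146 of 335 named loci higher in CPE and 2183 of 16504 loci without a symbol higher in CPE. Centring turned the median of the let-7 handling list to 0.55 and that of the IGF2BP partner list to 0.11. The other list medians, but for the list of let-7 genes and hosts, lay between -0.57 and -0.29 after centring. The share of named loci below HMGA1 was 1.12%, and 3.77% with 1 FPKM in either fraction. The list of let-7 genes and hosts had 1 measured row, the host LINC00478 at 1.39. Counting rows with several genes gave 2 rows with a median of -0.29, and no row of a let-7 gene alone was tested. All other counts of calls stayed within 1.5 times under every alternative run. With pseudocounts of 0.1 and 1 the 6 ratios kept their sign. No paired analysis was possible because the deposited table has 1 value per group. For the same reason no replicate could be left out. Depth was unknown, so uncalled differences cannot be told apart from ones too small to detect.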
